A study of Arabidopsis thaliana with 12 samples.

Results

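The comparison described here is the response of Arabidopsis thaliana seedlings to the peptide EPFL6 alone, measured as 3 EPFL6 libraries against 3 mock libraries with no cycloheximide. Genes entered it when their normalised read count was at least 10 in at least 3 of these 6 libraries, and 21746 of the 26702 genes in the deposited table did so. Of the 4956 that did not, 711 were at 0 in all 6 libraries. The third highest value lay between 10 and 11 for 114 genes just inside this limit and between 9 and 10 for 116 genes just outside it.

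EPFL6 belongs to the EPF/EPFL family of secreted cysteine-rich peptides, which bind receptor kinases of the ERECTA family (ERECTA, ERL1 and ERL2) and signal through a MAP kinase cascade. At the shoot apex this pathway acts beside the CLAVATA pathway, in which the peptide CLV3 restricts the homeobox gene WUS, while WUS in turn promotes CLV3 expression in the stem cells. The same receptors restrict stomatal development in the epidermis, and EPFL ligands also act in stem elongation and leaf margin growth.

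Every library came from 1 genotype, clv3 epfl1 epfl2 epfl4 epfl6, so the mock seedlings carry all 5 mutations as well; a wild type was not analysed here. Each replicate was a pool of 10 seedlings, collected at 3 days post germination and held in 1 ml of liquid medium. EPFL6 seedlings received 8.7 µl of a 10 µM peptide solution, and mock seedlings an equal volume of buffer. If 10 µM is the concentration of the added solution, the medium held 86.2 nM; the treatment label itself gives 10 µM without saying of which. Another 6 libraries, used here for the shared estimate of spread and for side-by-side values, came from seedlings given the translation inhibitor cycloheximide (CHX, 10 µM) for 10 minutes before buffer (3 libraries, CHX) or EPFL6 (3 libraries, CHX plus EPFL6). The labels do not state how long EPFL6 was present, and RNA was poly(A)-enriched from whole pools, so a peptide effect in the few cells of the meristem is averaged over all collected tissue. In such bulk samples, fewer cells of a type and less RNA per cell cannot be told apart.

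Mock libraries held 47.9, 56.8 and 49.5 M reads and EPFL6 libraries 40.2, 59.4 and 50 M. Over the 6 libraries the first principal component carried 47.7% of the variance and did not follow treatment, with mock replicate 3 and EPFL6 replicate 3 together at its low end. The second component carried 16.2%, and all 3 mock libraries (−15.7, −11.7 and −12.1) lay below all 3 EPFL6 libraries (25, −1.5 and 15.9). Nuclear photosynthesis genes were lowest in the same pair of libraries that ended the first component; its part in the results was not tested. Although the tissue is labelled as shoot, all 16 root markers were kept, and their summed normalised count was 11000 to 15100 in mock and 13600 to 16600 with EPFL6. The median log2 fold change of these markers was 0.21, and 0 of the 16 had groups that did not overlap; their part was not tested either.

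**Figure D1:**
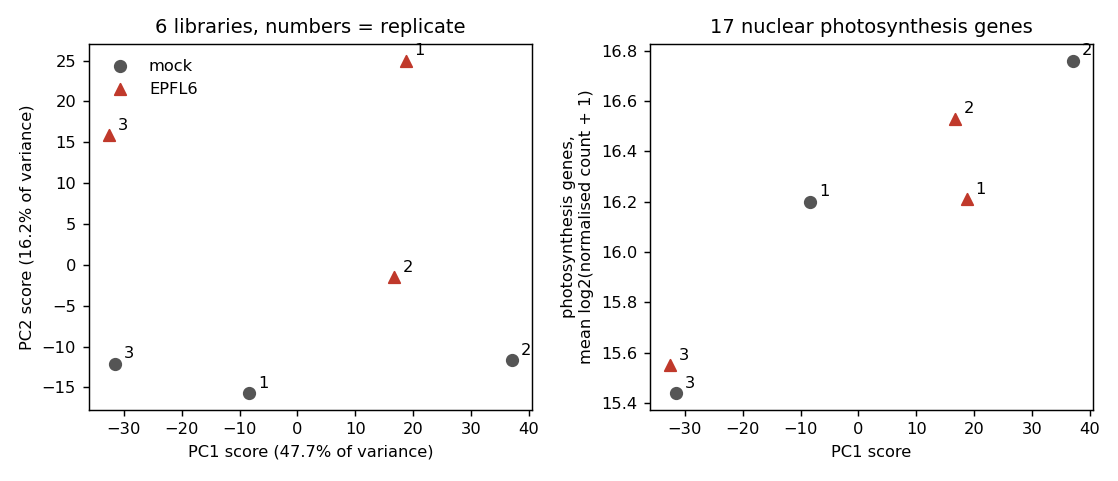
Left, scores of the 3 mock and 3 EPFL6 libraries on the first and second principal components (score units, percent of variance on each axis). Right, the mean log2 of the normalised read count plus 1 over 17 nuclear photosynthesis genes against the first component. Replicate 3 of both groups sits at the low end of the first component and has the lowest photosynthesis means (15.44 in mock and 15.55 with EPFL6).

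A very small number of transcripts were called lower with EPFL6, among them the stem cell peptide gene CLV3 and MCT2, which encodes a Mei2-like RNA-binding protein. These were the only genes of the 21746 with an adjusted p under 0.05 in limma, the main test. That made 2 genes lower (0.0092%) and 0 higher (0%). Fitted to the 6 libraries alone, limma called 0 genes, so both calls depended on the spread shared with the CHX libraries. Adjusted p-values are Benjamini-Hochberg values over all genes kept, two-sided. At an unadjusted limma p under 0.05 there were 587 genes (2.7%), of which 348 were higher (1.6%) and 239 lower (1.1%). On the reads recovered from the same values, edgeR called 3 genes lower (0.0138%) and 0 higher, the third being TEL2. DESeq2 called 30 of 21740 genes (0.138%), 10 of them higher (0.046%) and 20 lower (0.092%), and every limma and edgeR call is among those 30. In simulated data DESeq2 made a larger share of false calls than limma or edgeR, so genes called by DESeq2 alone are given below with their limma values.

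The size of the response was small across the transcriptome. The middle of the distribution of log2 fold changes was at 0, with its 25th and 75th percentiles at −0.06 and 0.07. Its 1st and 99th percentiles were −0.64 and 0.62. At least 2-fold differences were seen for 114 genes (0.524%), of which 46 were higher and 68 lower. The 3 EPFL6 values all lay above the 3 mock values for 814 genes (3.74%) and all below for 652 (3%), which together made 1466 genes (6.74%).

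**Figure D2:**
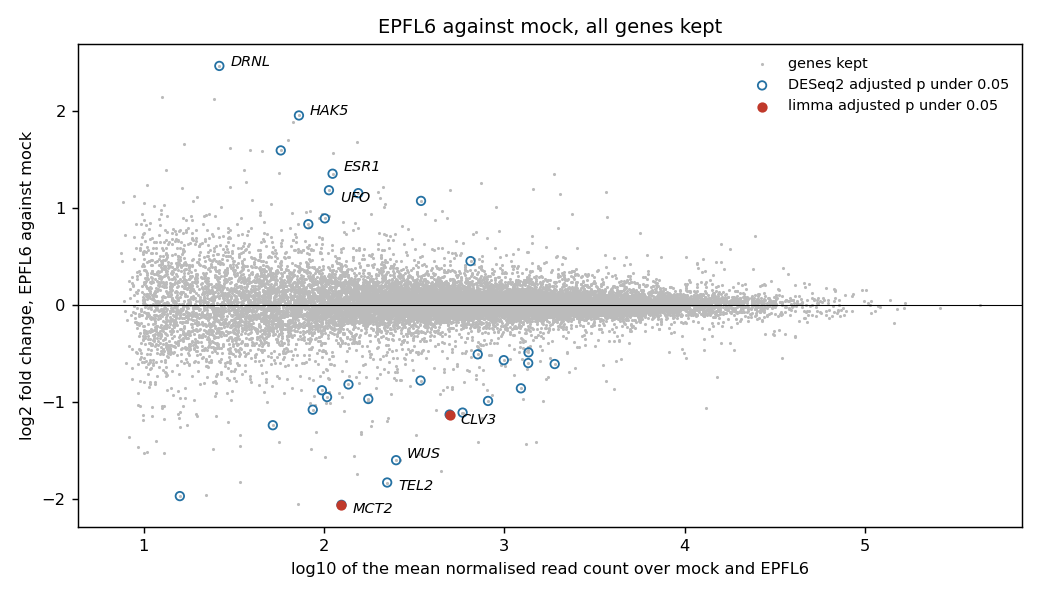
Log2 fold change of EPFL6 against mock (vertical axis) against the log10 of the mean normalised read count over both groups (horizontal axis), 1 point per gene kept. Filled red points are the 2 genes past the limma threshold, MCT2 and CLV3, and blue rings the 30 genes called by DESeq2, of which 10 lie above 0 and 20 below.

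Meristem genes were found in both directions. CLV3 and WUS, which form the core stem cell feedback loop, were lower with EPFL6. The organ-initiation genes DRNL and ESR1 and the F-box gene UFO were higher. Only CLV3 among them passed limma. Of the 32 shoot meristem regulators listed, 29 were kept; limma called 0 higher and 1 lower (0% and 0.0092% of all genes kept), and DESeq2 called 3 higher and 2 lower (0.046% and 0.092%). Groups did not overlap for 4 in each direction (3.74% higher and 3% lower over all genes kept). DRNL, among the higher ones, was kept only through its EPFL6 values, so its place in these counts is partly set by that limit. The median log2 fold change of the list was −0.02, beside 0 over all genes kept.

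CLV3 (AT2G27250; TAIR10.1 chromosome 2, 11664978 to 11665797) encodes the secreted peptide that limits stem cell number. Its normalised read counts were 618, 791 and 640 in the mock libraries and 290, 279 and 365 with EPFL6. Every EPFL6 value lay below every mock value, and the EPFL6 mean was 45.6% of the mock mean. The fall was −1.13 ± 0.11 on the log2 scale (± SE; limma adjusted p = 0.0084, edgeR 0.0086, DESeq2 1.6e-15), from 683 ± 94.6 to 311 ± 46.5 (SD, n = 3). Since the genotype carries a clv3 mutation, these reads do not show that a working CLV3 transcript was made. Leaving out EPFL6 replicate 1 or EPFL6 replicate 2 took the limma adjusted p to 0.057 and 0.065, and fitting the 6 libraries without the CHX groups took it to 0.58. Adding the replicate number to the limma fit of all 12 libraries took it to 0.058.

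WUS (AT2G17950; chromosome 2, 7808871 to 7810811) encodes the homeodomain protein of the organising centre beneath the stem cells. It measured 310, 400 and 426 in mock, against 122, 121 and 126 with EPFL6. The groups were far apart and the EPFL6 libraries almost equal, with a mean at 32.5% of mock. Its log2 fold change of −1.60 ± 0.22 was called by DESeq2 (adjusted p = 3.8e-10) but not by limma (0.11) or edgeR (0.062). Without CHX plus EPFL6 replicate 1 or 3, which change only the shared estimate of spread, the limma value was 0.019 and 0.014, but with any 1 mock or EPFL6 library left out it was 0.16 to 0.46. WUS was past the threshold in 5 of 29 alternatives, 2 of them DESeq2 fits.

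STM, the KNOX homeobox gene that keeps meristem cells undifferentiated, measured 1060, 993 and 980 in mock, against 833, 943 and 1110 with EPFL6. Its groups overlapped, and the log2 fold change was −0.08 ± 0.22 (limma adjusted p = 1). The CLV3 receptor gene CLV1 measured 2100, 2400 and 1890 in mock, against 1820, 1790 and 1860 with EPFL6, below all mock values by a small margin (log2 fold change −0.22, limma and DESeq2 adjusted p = 1). CUC2, a boundary gene, measured 91.1, 96.5 and 86.6 in mock, against 43.2, 67.7 and 55.6 with EPFL6, again without overlap (−0.73, limma adjusted p = 1). HAM2, which encodes a GRAS-domain partner of WUS, lay higher without overlap by 0.10 on the log2 scale (limma adjusted p = 1).

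Because CLV3, WUS and TEL2 were lower together, the 300 bases before their annotated starts are shown, from the RefSeq TAIR10.1 annotation, each read 5′ to 3′ on the strand of its gene. Capitals mark TAAT, the core sequence bound by many homeodomain proteins, or its reverse complement ATTA, with overlapping matches joined. The CLV3 window is chr2:11665798-11666097 (minus strand), the WUS window chr2:7810812-7811111 (minus strand) and the TEL2 window chr1:25407564-25407863 (plus strand). MCT2 is annotated as a partial gene, so its window is left out.
CLV3: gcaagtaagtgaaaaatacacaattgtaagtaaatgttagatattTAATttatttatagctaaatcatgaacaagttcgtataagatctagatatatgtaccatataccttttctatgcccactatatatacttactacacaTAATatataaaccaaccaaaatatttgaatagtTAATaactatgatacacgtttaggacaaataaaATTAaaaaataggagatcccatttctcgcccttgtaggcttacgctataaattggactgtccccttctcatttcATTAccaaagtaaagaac
WUS: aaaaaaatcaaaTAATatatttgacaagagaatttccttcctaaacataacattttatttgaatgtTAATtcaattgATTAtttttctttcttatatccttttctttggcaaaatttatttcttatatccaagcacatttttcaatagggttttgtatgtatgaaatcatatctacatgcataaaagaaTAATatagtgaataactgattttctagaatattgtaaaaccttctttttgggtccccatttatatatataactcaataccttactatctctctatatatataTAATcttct
TEL2: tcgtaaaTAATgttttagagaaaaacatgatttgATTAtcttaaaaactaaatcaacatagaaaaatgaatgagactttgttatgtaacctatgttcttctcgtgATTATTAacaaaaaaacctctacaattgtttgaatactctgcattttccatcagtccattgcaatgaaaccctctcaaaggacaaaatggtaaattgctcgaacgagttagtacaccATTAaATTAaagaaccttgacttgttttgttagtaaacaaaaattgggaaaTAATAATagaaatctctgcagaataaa
TAAT occurred 5 times in the CLV3 window, 5 times in the WUS window and 8 times in the TEL2 window, counting both strands and overlaps. Among 20078 windows of the same length before annotated starts, 98.9% held TAAT at least 1 time, with a median of 6 matches, so its presence does not set these windows apart. The longer motif TTAATGG, on either strand, occurred 1 time in the TEL2 window and 0 times in the others, and 8.51% of all windows held it. The G-box CACGTG occurred in none of the 3 windows, beside 7.94% of all windows. These matches describe the letters only.

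DRNL and ESR1 (also called DORNRÖSCHEN) encode closely related AP2-type factors that mark and promote the initiation of organs. DRNL measured 13.8, 6.49 and 4.08 in mock, against 44.5, 42.5 and 46.4 with EPFL6. All EPFL6 libraries were above all mock libraries, although the comparison rests on 24 mock and 129 EPFL6 reads in all, and DRNL was kept only through its EPFL6 values. Its log2 fold change was 2.46 ± 0.38 (DESeq2 adjusted p = 9.5e-05, limma 0.18, edgeR 0.21). ESR1 measured 59.3, 64 and 63.2 in mock, against 159, 142 and 181 with EPFL6. The mock values were tight, the groups did not overlap, and the EPFL6 mean was 259% of mock (log2 fold change 1.35 ± 0.25; DESeq2 adjusted p = 1.3e-11, limma 0.38, edgeR 0.11).

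UFO encodes an F-box protein best known as a cofactor of LEAFY in flowers, and is also expressed in the vegetative meristem. It measured 71, 62.2 and 59.1 in mock, against 126, 128 and 192 with EPFL6, with no overlap (log2 fold change 1.18 ± 0.35; DESeq2 adjusted p = 0.0042, limma 1, edgeR 0.47). SAP, which encodes an F-box protein involved in organ size and flower development, measured 62.5, 63.1 and 51 in mock, against 104, 98 and 113 with EPFL6. It too did not overlap (0.83 ± 0.16; DESeq2 adjusted p = 0.025, limma 0.42), but DESeq2 called it in 1 of 7 fits that left out mock or EPFL6 libraries, and UFO in 4 of 7. ESR1 was called in 7 of 7 and DRNL in 6 of 7.

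**Figure D3:**
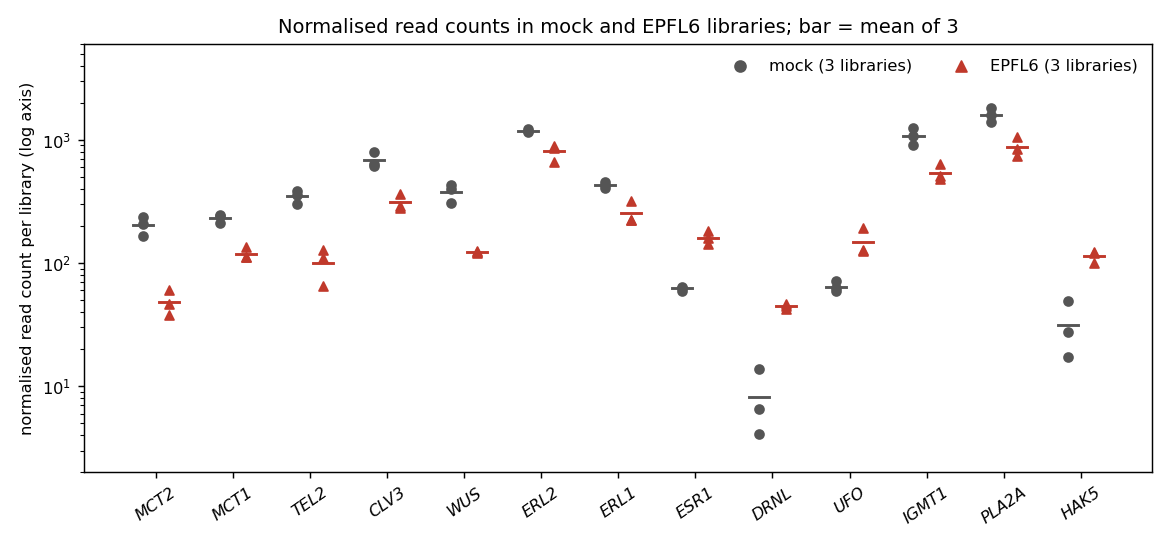
Normalised read count in each mock library (grey circles) and each EPFL6 library (red triangles) for 13 genes, on a log axis, with a bar at the mean of 3. MCT2 to ERL1, IGMT1 and PLA2A are lower and ESR1, DRNL, UFO and HAK5 higher with EPFL6, and in each of the 13 the groups do not overlap.

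Mei2-like genes were the other group with large decreases; they encode RNA-binding proteins. TEL1 and TEL2 are relatives of TERMINAL EAR1, a gene that in maize controls the rate of leaf initiation, and MCT1 and MCT2 encode short forms with only the C-terminal RNA recognition motif. All 9 listed genes were kept; limma called 1 of them lower (0.0092% over all genes kept) and DESeq2 3 lower (MCT1, MCT2 and TEL2; 0.092%). Groups did not overlap for those 3 (3% lower over all genes kept). The list median was −0.14, beside 0 over all genes kept.

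MCT2 (AT5G07930; chromosome 5, 2530834 to 2532742) measured 165, 236 and 206 in mock, against 38.1, 59.9 and 46.4 with EPFL6. Its EPFL6 mean was 23.8% of mock, and the highest EPFL6 library was well under the lowest mock library. The fall was −2.06 ± 0.18 on the log2 scale (limma adjusted p = 0.0046, edgeR 0.0043, DESeq2 4.3e-19). It was past the limma threshold with any 1 library left out, but not without the CHX groups (0.31) or without replicate 3 of both mock and EPFL6 (0.16).

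TEL2 measured 302, 385 and 355 in mock, against 64.8, 110 and 127 with EPFL6. The groups did not overlap, and the EPFL6 mean was 29% of mock (log2 fold change −1.83 ± 0.23; limma adjusted p = 0.060, edgeR 0.046, DESeq2 5.9e-11). MCT1 measured 247, 241 and 211 in mock, against 111, 111 and 135 with EPFL6, also without overlap (−0.97 ± 0.30; DESeq2 adjusted p = 5.1e-06, limma 1, edgeR 0.39). TEL1, the paralog of TEL2, measured 45.5, 36.2 and 32.6 in mock, against 22.9, 39 and 31.9 with EPFL6, and its groups overlapped (−0.30). The 5 longer genes of the family (ML1 to ML5) overlapped as well, with log2 fold changes from −0.14 to 0.

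The receptors of the peptide formed another group, with smaller changes. ERL1 and ERL2 were lower with EPFL6 and were called by DESeq2 only, while ERECTA itself was not called. Of the 16 genes listed for ERECTA-family receptors, their SERK co-receptors and the kinases downstream, all were kept, limma and edgeR called 0, and DESeq2 called 0 higher and 2 lower (0.046% and 0.092% over all genes). Groups did not overlap for 3 lower genes (3% over all genes kept), and the list median was 0.01.

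ERL1 measured 408, 453 and 434 in mock, against 222, 222 and 317 with EPFL6, without overlap (log2 fold change −0.78 ± 0.16; DESeq2 adjusted p = 0.015, limma 0.49, edgeR 0.55). ERL2 measured 1220, 1190 and 1150 in mock, against 667, 860 and 888 with EPFL6, also without overlap (−0.57 ± 0.12; DESeq2 adjusted p = 0.0041, limma 0.49, edgeR 0.47). DESeq2 kept its call of ERL2 in 5 of 7 fits that left out libraries and of ERL1 in 2 of 7. The ERECTA gene (ER) measured 1970, 2190 and 1810 in mock, against 1600, 1850 and 1810 with EPFL6, where the groups overlapped (−0.18, limma adjusted p = 1). The other gene without overlap was TMM, which encodes a receptor-like protein that modulates ERECTA signalling in the stomatal lineage, at 67.8, 74.2 and 87.6 in mock and then 45.8, 59 and 44.3 with EPFL6 (−0.62, limma and DESeq2 adjusted p = 1). The MAP kinase cascade genes YDA, MKK4, MKK5, MPK3 and MPK6 overlapped between groups, with log2 fold changes from −0.07 to 0.13.

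Stomatal lineage genes that did not overlap were likewise lower, but neither limma nor DESeq2 called any of them. Of 14 genes listed, 11 were kept, 3 were lower without overlap (EPF2, TMM and SPCH; 3% over all genes kept) and 0 higher (3.74%), and the list median was −0.13. EPF2 was kept only through its mock values, so its place among them is partly set by that limit. EPF2, the peptide that limits entry into the lineage, measured 11.7, 20.4 and 16.3 in mock, against 5.09, 4.34 and 5.15 with EPFL6 (−1.52; limma adjusted p = 0.49, DESeq2 0.43), from 49 mock reads and 14 EPFL6 reads. SPCH, the transcription factor that starts the lineage, measured 87.9, 94.6 and 111 in mock, against 72.5, 85 and 60.8 with EPFL6 (−0.43). FAMA, which acts at the last step of guard cell formation, overlapped (−0.02).

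None of the other mutated genes was called. Of the 4 mutated EPFL genes, EPFL1 (AT5G10310) measured 77.3, 109 and 69.3 in mock, against 99.2, 94.6 and 72.1 with EPFL6, and EPFL2 (AT4G37810) measured 3110, 2250 and 3590 in mock, against 3380, 1980 and 3510 with EPFL6. Both overlapped (0.07 ± 0.25 and −0.03 ± 0.22, limma adjusted p = 1 for each). EPFL4 had 8 mock and 7 EPFL6 reads and EPFL6 itself 31 and 32 reads, too few to enter the comparison. These reads carry no information on whether the mutant alleles give working transcripts.

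DESeq2 called 20 genes that belong to none of the lists, several of them enzymes or transporters. IGMT1, an O-methyltransferase of indole glucosinolate synthesis, measured 1240, 908 and 1080 in mock, against 482, 635 and 511 with EPFL6 (log2 fold change −0.99 ± 0.14; DESeq2 adjusted p = 8.2e-07, limma 0.11). PLA2A, a patatin-like lipid hydrolase linked to defence, measured 1390, 1810 and 1580 in mock, against 746, 836 and 1060 with EPFL6 (−0.86 ± 0.15; DESeq2 1.5e-04, limma 0.29). Both were without overlap, and DESeq2 called them in 7 of 7 fits that left out libraries. IGMT1 lies among closely similar IGMT copies, and how the counting divided reads between them is not given. HAK5, the high-affinity potassium transporter of roots, measured 27.5, 49.2 and 17.3 in mock, against 121, 122 and 99.9 with EPFL6 (1.95 ± 0.37; DESeq2 0.0019, limma 0.42), and was called in 5 of 7 such fits.

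Several regulators were among them. AT1G80580, annotated in RefSeq with an integrase-type DNA-binding domain like ESR1, measured 120, 130 and 103 in mock, against 49.6, 49.5 and 67 with EPFL6 (−1.08 ± 0.17; DESeq2 1.3e-04, limma 0.20). It did not overlap and was called by DESeq2 in 7 of 7 such fits. AGO5, an Argonaute protein that binds small RNAs, measured 1620, 1890 and 1410 in mock, against 1020, 1040 and 1150 with EPFL6 (−0.60 ± 0.12; DESeq2 0.0035, limma 0.42). The B3-type factor gene AT1G26680 measured 2050, 2670 and 2170 in mock, against 1430, 1420 and 1650 with EPFL6 (−0.61 ± 0.14; DESeq2 0.044, limma 0.82), and the NAC factor gene NAC004 went from a mean of 136 to 72 (−0.95 ± 0.19; DESeq2 0.0067, limma 0.46). AT3G25670, which encodes a leucine-rich repeat protein, measured 165, 199 and 160 in mock, against 95.3, 105 and 94.8 with EPFL6 (−0.82 ± 0.13; DESeq2 4.1e-04, limma 0.18). In the fits that left out libraries, DESeq2 called AT3G25670 in 6 of 7, AGO5 in 5, NAC004 in 4 and AT1G26680 in 1.

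Of the remaining calls, the lower ones were AT2G01024 (a pseudogene), AT3G03670 (a peroxidase), AT2G43120 (a cupin), SK4 (SKP1-like), AT5G01075 and AT3G59270, with log2 fold changes from −1.97 to −0.49. The higher ones were AT5G38700, COBL5 (COBRA-like), GSTF14 (a glutathione S-transferase), AT5G47600 (HSP20-like) and CRK6 (a receptor-like kinase), from 0.45 to 1.59. Their limma adjusted p-values ran from 0.25 (AT5G38700) to 1 (CRK6). AT5G38700, annotated as a cotton fiber protein, measured 79.4, 55.7 and 78.5 in mock, against 122, 124 and 148 with EPFL6, and COBL5 measured 569, 527 and 551, against 767, 702 and 780. AT3G03670 measured 26.5, 12.1 and 40.8 in mock, against 5.09, 6.94 and 4.12 with EPFL6. In all 3 of these genes the groups did not overlap. AT3G03670 was kept only through its mock values, so its lack of overlap is partly set by that limit, and it rests on 78 mock and 16 EPFL6 reads. CRK6 was the only gene of the 30 whose groups overlapped, at 36, 26 and 15.3 in mock and then 30.5, 99.8 and 138 with EPFL6. AT3G59270 was called by DESeq2 in 0 of 7 fits that left out libraries. Over all 30 genes, 9 were called in 7 of 7: CLV3, WUS, MCT1, MCT2, TEL2, ESR1, AT1G80580, IGMT1 and PLA2A.

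Some differences of similar size were not called by any of the 3 tools in the fits of all 12 libraries. Among 19474 genes with a mean of at least 50 in the higher group, 10 were at least 2-fold higher and 10 at least 2-fold lower without overlap (0.0514% each). Among the uncalled ones was the nitrate transporter gene NRT2:1, at 96.4, 126 and 122 in mock and then 467, 233 and 157 with EPFL6 (log2 fold change 1.16 ± 0.32, DESeq2 adjusted p = 0.057). The linker histone gene HIS1-3 measured 159, 152 and 120 in mock, against 67.4, 69.4 and 75.2 with EPFL6 (−1.01 ± 0.31, DESeq2 0.39), and the terpene synthase gene TPS13 measured 192, 76.1 and 179, against 19.1, 72 and 69 (−1.57 ± 0.58, DESeq2 0.88). The limma adjusted p of the main fit was 1 for each of these 3 genes. Among the alternatives, DESeq2 on the 6 libraries alone called HIS1-3 (adjusted p = 0.0022). Limma with array weights called NRT2:1 (adjusted p = 0.03), and none of the 29 alternatives called TPS13. CYP82C2, which encodes a P450 enzyme of indole metabolism, did not enter the comparison, with 5, 9 and 17 reads in the mock libraries and 0 in all EPFL6 libraries.

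Across 25 gene lists, those with a gene called by DESeq2 were the meristem regulators, the Mei2-like genes and the ERECTA-family list, and the other 22 held 0 called by limma and 0 by DESeq2. List medians ran from −0.14 to 0.21. Of the 34 leaf primordium, polarity and growth genes, 2 were higher and 6 lower without overlap (3.74% and 3% over all genes kept; median −0.03); the lower ones included the growth regulator ANT (1050, 920 and 1020 in mock, 580, 725 and 790 with EPFL6) and the little zipper gene ZPR3 (408, 534 and 518, then 332, 374 and 393). Among 16 CLE peptide genes kept besides CLV3, 2 were lower without overlap, CLE1 (15.9, 16.7 and 13.2, then 6.36, 6.94 and 7.21) and CLE44 (3% over all genes kept), while all 9 WOX genes kept besides WUS overlapped. CLE1 was kept only through its mock values.

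No gene of the auxin, cytokinin, gibberellin and brassinosteroid, or jasmonate lists was called, and other hormones had no list. The counts of genes without overlap can be read against 3.74% higher and 3% lower over all genes kept. Of 18 cytokinin genes, the response regulator ARR3 (log2 fold change 0.63) and the cytokinin oxidase gene CKX5 (0.42) were higher and CKX3 (−0.69) lower without overlap. Of 13 gibberellin and brassinosteroid genes, 4 were higher and 1 lower without overlap, with the brassinolide synthesis gene BR6OX2 at 1980, 1620 and 2480 in mock and then 3110, 2730 and 3140 with EPFL6 (0.58) and the gibberellin oxidase gene GA2OX4 at −0.94. Of 15 early auxin response genes, SAUR9 (0.43) and IAA5 (0.35) were higher without overlap. The mock values of IAA5 alone would not have kept it, so its lack of overlap is partly set by the limit for keeping genes. IAA5 rests on 29 mock and 37 EPFL6 reads. Of 16 auxin synthesis and transport genes, YUC1 (−0.73) and TAA1 (−0.22) were lower without overlap. None of the 16 jasmonate genes, 11 clock genes or 16 G2 and mitosis genes had groups that did not overlap. Of 25 immediate early, wound and elicitor genes, 2 were higher (WRKY53 at 0.71 and FRK1 at 0.93) and 1 lower (ZAT11 at −0.44). Of 16 S phase genes, MCM4, MCM5 and MCM6 were higher without overlap by 0.09 to 0.14. In limma the adjusted p was over 0.05 for every gene of these hormone, stress and cell cycle lists.

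**Figure D4:**
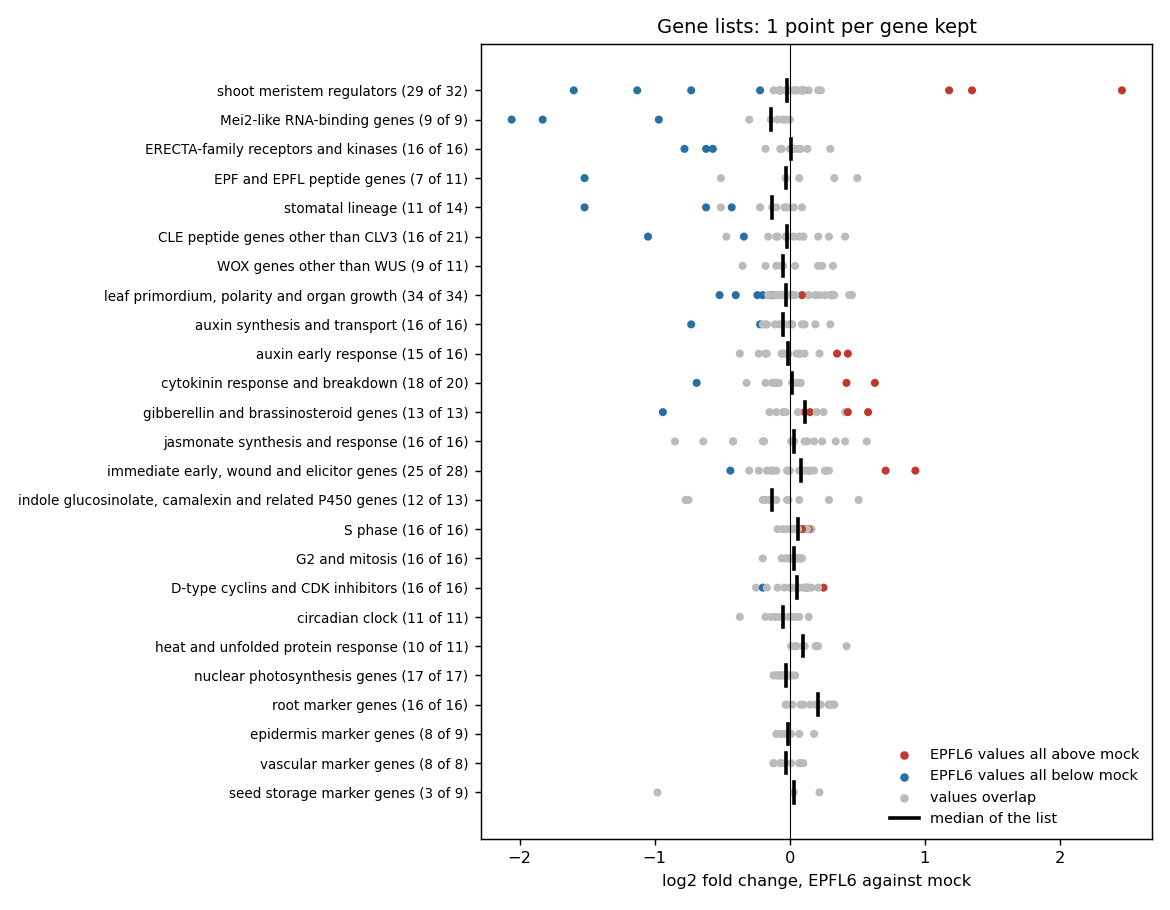
Log2 fold change of EPFL6 against mock for each kept gene of 25 lists (kept of listed genes in brackets), coloured by whether all EPFL6 values lay above mock (red), below mock (blue) or overlapped (grey), with a black bar at the list median. The medians lie between −0.14 and 0.21, and the points farthest from 0 are in the meristem and Mei2-like lists.

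The CHX libraries allow the same genes to be looked at in seedlings held in a translation inhibitor. The CHX comparison shares no library with the one above, though a single limma fit gives both a common spread; it had 3086 genes past the threshold (14.2%), 1399 higher (6.43%) and 1687 lower (7.76%). Of the 20 genes DESeq2 called lower with EPFL6 alone, 15 were also lower with CHX present, 1 (IGMT1) was higher, and 4 did not pass. Of the 10 called higher with EPFL6 alone, 5 were lower with CHX present, 0 were higher and 5 did not pass.

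The stem cell genes kept their direction. CLV3 was at 4790, 4850 and 4490 in CHX and at 850, 867 and 841 in CHX plus EPFL6, a fall of −2.46 ± 0.11 beside −1.13 ± 0.11 without CHX. WUS was at 891, 1140 and 1030 in CHX and 131, 92.6 and 63.4 in CHX plus EPFL6 (−3.45 ± 0.22). MCT2 was at 239, 233 and 260 and then 24.8, 26.2 and 23.9 (−3.24 ± 0.18). The change with CHX was the larger in each of these 3 genes, and the limma interaction, which tests the difference between the EPFL6 changes, gave adjusted p = 0.003, 0.022 and 0.047.

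Opposite signs in the 2 settings were found for ESR1, UFO and DRNL. ESR1 was at 752, 772 and 712 in CHX and 31.9, 33.2 and 14.6 in CHX plus EPFL6 (−4.84 ± 0.25), beside 1.35 without CHX. UFO was at 85.6, 92.6 and 59 and then 1.18, 1.75 and 5.2 (−4.56 ± 0.35). Its CHX plus EPFL6 values were all under 10, so the size of this fall rests on few reads. DRNL was at 69, 136 and 79.2 and then 18.9, 28 and 17.7 (−2.05 ± 0.38). In ESR1, UFO and DRNL, CHX plus EPFL6 lay below CHX in every library, and the limma interaction adjusted p was 7.3e-05, 6.5e-04 and 0.003. ERL2 was lower in both settings (−0.57 and −2.17; interaction adjusted p = 0.0013), and STM, which overlapped without CHX, was lower with it (−2.38 ± 0.22; interaction 0.0067). The interaction passed for 18 of the 30 genes called by DESeq2. Over all genes kept it passed for 340 (1.56%), with 87 positive (0.4%) and 253 negative (1.16%). As those 30 were chosen on a contrast that enters the interaction, their share is a description. Over the alternatives, the number of all genes past the interaction threshold ran from 58 to 1761.

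**Figure D5:**
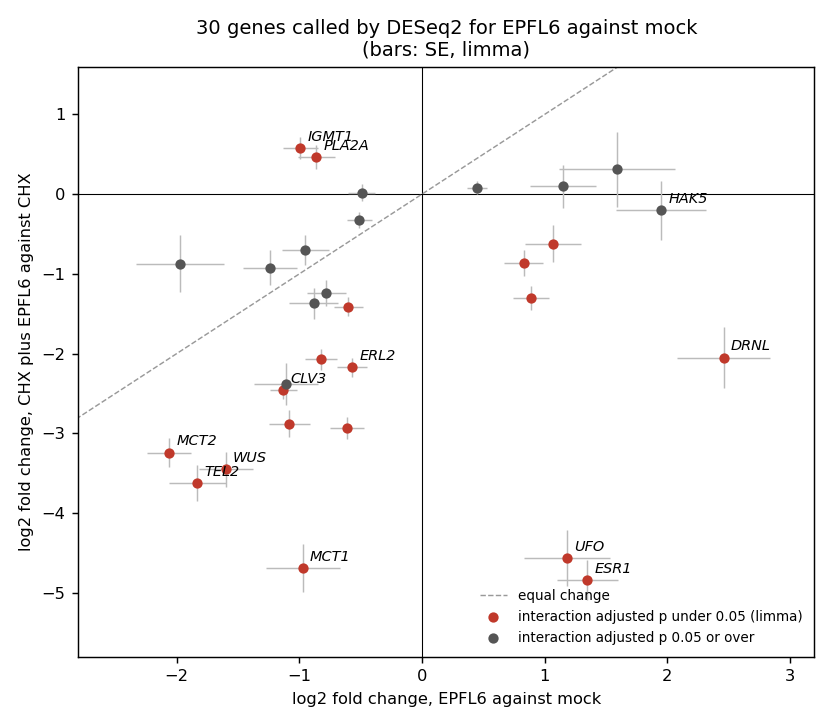
Log2 fold change of EPFL6 with CHX present (vertical axis) against that of EPFL6 alone (horizontal axis) for the 30 genes called by DESeq2 without CHX, with limma standard errors as bars and a dashed line at equal change. Red points are the 18 genes past the limma interaction threshold; CLV3, WUS, MCT1, MCT2 and TEL2 lie in the lower left and ESR1, UFO and DRNL in the lower right.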

How the data were processed

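Reads were handled with STAR 2.7.6a on TAIR10, featureCounts 2.0.0 and DESeq2 1.26.0, per the submitters' processing notes; strand and counting mode are not given in the sources used here, so overlapping or antisense genes may share reads. The values the authors deposited are a read signal scaled per library: each column holds whole read counts divided by 1 size factor, and 100% of values came out within 1e-06 of a whole read. Values are not scaled to gene length, so levels were not compared between genes.

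For the main test, limma 3.58.1 (R 4.3.3) was fitted to log2(value + 1) of all 12 libraries in 4 groups, with an intensity trend and robust moderation (8 residual degrees of freedom). The recovered counts were tested with edgeR 4.0.16 (TMM, quasi-likelihood) and DESeq2 1.42.0. On simulated data all 3 tools missed part of the small changes and recovered larger ones more often, and DESeq2 made a larger share of false calls than the others. RefSeq TAIR10.1 locus tags matched 26514 genes. The labels call the 3 pools of a group biological replicates and name no batch.

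Named were WUS, CLV3, STM, the mutated genes, and every gene called by any of the 3 tools in the fits of all 12 libraries. Also named were the 10 smallest limma p-values and 10 largest changes per direction, and up to 4 genes of each list. ER, ML1 to ML5, TEL1, CLV1 and other list genes outside this rule were chosen after their values were seen. Gene sets and lists were chosen with earlier results of these data known. Alternatives changed the scaling, pseudocount, filter, tool, block and libraries.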

Additional observations from a re-analysis of the deposited data

Results flagged for a closer look

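The limma interaction, the EPFL6 change with CHX minus the change without it on the log2 scale, passed the threshold for 24 of the 132 named genes. It was most negative for ESR1 at −6.20 (adjusted p = 7.3e-05), UFO at −5.74 (6.5e-04), DRNL at −4.51 (0.003) and MCT1 at −3.72 (0.0023). The CHX plus EPFL6 values of UFO and MCT1 were all under 10 (means 2.71 and 7.1), so the sizes for these genes rest on few reads. ESR1, UFO, DRNL, AT5G38700 at −2.19, GSTF14 at −1.69 and SAP at −1.69 were above mock with EPFL6 alone and below CHX with CHX present. AT1G26680 was at −2.32, AT1G80580 at −1.80, AT3G25670 at −1.25 and AGO5 at −0.81, each lower in both settings. The meristem and Mei2-like genes gave −2.30 for STM, −1.85 for WUS, −1.33 for CLV3, −1.79 for TEL2 and −1.18 for MCT2. The receptor gene ERL2 gave −1.61. The leaf genes ZPR3 and ANT gave −1.92 and −1.12, and the auxin synthesis gene TAA1 −0.85. The pseudogene AT5G41710 gave −1.26 and the uncharacterised gene AT1G10657 −0.91. Positive values were found for IGMT1 at 1.57 and PLA2A at 1.33, which were lower with EPFL6 alone and higher with CHX plus EPFL6 than with CHX. The change with CHX had a limma adjusted p of 0.059 for PLA2A and 0.095 for GSTF14, so neither passed on its own. Starting levels differed between the settings: mean PLA2A was 1590 in mock and 140000 in CHX. The part of the starting levels in the interaction was not tested.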

How the results depend on the processing

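The number of genes past the threshold for EPFL6 against mock, 2 in limma (0 higher, 2 lower), depended on the tool and on the shared spread. Without the CHX libraries it was 0 in limma (601 at an unadjusted p under 0.05), 0 in edgeR (656) and 40 in DESeq2 (14 higher, 26 lower). With all 12 libraries DESeq2 gave 30 (10 higher, 20 lower). These DESeq2 sets differed: HIS1-3, XTH17 and HA2 were in the 40 alone, and SAP, NAC004 and CRK6 in the 30 alone. Array weights, which gave mock replicate 1 a weight of 11.1, called 79 genes (33 higher, 46 lower). No filter on low values, and a minimum of 10 in 3 of all 12 libraries, gave 4 each (0 higher, 4 lower: CLV3, MCT2, TEL2 and CYP82C2).

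Leaving out each library in turn gave 1 to 4 genes, with 0 to 1 higher and 1 to 4 lower. The 1 without EPFL6 replicate 1 or EPFL6 replicate 2 was MCT2. Without mock replicate 2, AT3G03670 and SDR4 were gained, and without CHX plus EPFL6 replicate 3, WUS and ESR1; without mock replicate 1, DRNL was gained, without EPFL6 replicate 3, TEL2, and without CHX plus EPFL6 replicate 1, WUS. Without replicate 3 of mock and EPFL6, chosen after seeing the data, 1 gene was lower, CLV3. The same omissions, also chosen after seeing the data, gave DESeq2 26, 79 and 17 genes without mock replicates 1, 2 and 3, 51, 21 and 24 without EPFL6 replicates 1, 2 and 3, and 15 without both replicates 3.

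With a replicate block over all 12 libraries, limma called 1 gene, MCT2, and CLV3 had an adjusted p of 0.058; in the 6 libraries alone the block gave 0. Same-numbered mock and EPFL6 libraries had residual correlations of −0.17, 0.36 and 0.53, and differently numbered ones ran from −0.58 to 0.36. The labels do not say whether same-numbered libraries were handled together, and these values cannot settle it. MCT2 was past the threshold in 25 of 29 alternatives and CLV3 in 23, with adjusted p from 4.3e-19 to 0.42 and from 1.6e-15 to 0.64. Signs turned for genes near 0: with libraries left out, STM ranged from −0.21 to 0.02 (positive without EPFL6 replicate 1), AT5G10310 from −0.07 to 0.26 (negative without mock replicate 3 or EPFL6 replicate 1), and AT4G37810 from −0.22 to 0.23 (positive without mock replicate 1, mock replicate 3 or EPFL6 replicate 2). The causes were not tested. Alternatives were run for named genes picked by more than list membership or with an unadjusted limma p under 0.05. For these genes, 1708 values kept their direction and side of the threshold, 90 gained a call and 10 lost one. Only MCT2 and CLV3 passed in the main fit, so only they could lose a call. For all other genes, keeping the side of the threshold meant staying uncalled. Interaction values of single genes were rerun only for STM and the 30 genes called by DESeq2. There 705 values kept direction and side of the threshold, 8 gained and 59 lost a call. Over all genes, 340 passed the interaction threshold in the main fit. This count ran from 58 without replicate 3 of mock and EPFL6 to 1761 with array weights. For CHX plus EPFL6 against CHX, 3086 genes passed in the main fit. That count ran from 1039 without CHX replicate 3 to 4468 in DESeq2. All 130 medians of the lists and of all genes, recomputed from the 6 libraries alone and under other scalings and pseudocounts, moved by less than the spread between replicates. Fitting the 6 libraries alone could not move these medians, because each limma fold change is a difference of group means. For the same reason, leaving out CHX or CHX plus EPFL6 libraries could not turn the sign of EPFL6 against mock in limma. Genes near the limit of 10, such as DRNL and EPF2, rest on few reads.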
